A study of Homo sapiens with 14 samples.

Results

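The genes described here are 52 genes of DNA replication and nucleotide synthesis, followed across all 7 groups of the series. They were chosen by symbol, as named parts of the replication machinery. The rule itself uses no measured value, but the list was drawn up with earlier results of these data known. Each of the 52 symbols matched 1 Ensembl identifier among the 60683 in the count tables, of which 60370 carried a GENCODE release 44 symbol. All 52 passed the filter on low counts and were tested in every comparison. By role they comprised 11 genes of origin licensing, 10 of helicase activation and fork progression, 10 of the sliding clamp, its loaders and Okazaki fragment maturation, 9 of the polymerases and primase, 3 of single-strand binding, 5 of nucleotide synthesis and 4 of chromatin assembly and histone supply.

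RNA was sequenced from A549, a lung cancer cell line, and SUM159, a triple-negative breast cancer cell line. A549 cells were untreated or received 2 μM palbociclib, 0.5 μM indisulam or both agents for 10 days, or 0.5 μM PF-06873600 for 7 days. SUM159 cells were untreated or received 0.5 μM PF-06873600 for 7 days. Each group held 2 libraries, 14 in all, and the question behind the comparisons was how the transcriptome of cells driven towards senescence by these agents differs from that of untreated cells. Palbociclib inhibits the kinases CDK4 and CDK6, PF-06873600 inhibits CDK2 in addition to these, and indisulam recruits the splicing factor RBM39 to the DCAF15 ubiquitin ligase for degradation. The submitters call the duplicates technical, so p-values measure only the spread between these libraries. When the untreated cells were harvested is not given in the sources used here. The PF-06873600 groups were treated for fewer days than the other drug groups, and duration and agent cannot be told apart between them.

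Before S phase, ORC, CDC6 and CDT1 load the MCM2-7 helicase onto origins, and geminin (GMNN) holds CDT1 in check afterwards. CDC45 and the GINS complex turn the loaded helicase into the active fork helicase, primase and polymerases copy the strands with the clamp PCNA, and ribonucleotide reductase, thymidylate synthase and thymidine kinase feed the fork with deoxynucleotides. Most of these genes are textbook targets of E2F transcription factors, which RB restrains until cyclin-dependent kinases phosphorylate it. In bulk RNA a smaller share of cells in S phase and less of a transcript per cell cannot be told apart.

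Library totals ran from 13060374 to 21149256 counts on genes, so the smallest level a library could show, taken as 3 counts, lay between 0.142 and 0.23 CPM, the usual scaling of a gene's counts by its library's total on genes. Duplicates of each group varied beyond counting error, the chi-square of their counts over genes being 1.61 to 9.57 times its degrees of freedom and Pearson's r of log2 CPM between 0.994 and 0.998 across genes, which are not independent replicates. The untreated A549 and untreated SUM159 pairs differed most, at 9.57 and 9.05. VIM and CAV1 were higher in every SUM159 library than in any A549 library, while CD44 (medians of 1130 CPM) and KRT7 overlapped between the lines. Of the other basal markers in SUM159, KRT5 reached 4.82 and KRT14 2.70 CPM. CDH1 stayed at or below 0.82 CPM there, and the alveolar marker SFTPB had 0 counts in A549. Of the hormone receptor breast cancer markers, ESR1 reached 0.662 CPM and PGR had 0 counts in SUM159. ERBB2 overlapped between the lines, at 118 to 130 CPM in SUM159 and 109 to 166 CPM in A549. The summed level of 5 epithelial markers stood at 5370 to 6240 CPM in untreated A549, 8730 to 8860 with palbociclib, 9730 with indisulam, 12600 to 13100 with the combination and 13800 to 13900 with PF-06873600. In SUM159 the same sum stood at 2530 to 2680 CPM without drug and 1140 to 1170 with PF-06873600. With PF-06873600 the epithelial sum thus moved in opposite directions in the lines, as the sum of the members did. With the combination in A549 it was above that of untreated cells, whereas the sum of the members was below it. The summed level of 5 fibroblast markers stood at 1710 to 1800 CPM in untreated and 4340 to 4530 CPM in treated SUM159. In A549 it stood at 1.97 to 2 CPM without drug, 3.86 to 4.15 with palbociclib, 20 to 21.1 with indisulam, 82.1 to 84 with the combination and 8.53 to 10.4 with PF-06873600. Over the A549 libraries COL1A1 ran from 1.9 to 73.7 CPM and LUM from 0 to 9.71 CPM. COL1A2, COL3A1 and DCN reached at most 3, 7 and 5 counts there. The sum of 5 basal or mesenchymal markers stood at 1540 to 1550 CPM in untreated A549 and 3700 to 3710 CPM with the combination. That of 3 leukocyte markers stood at 9.53 to 9.96 CPM in untreated and 18.1 to 20.4 CPM in treated SUM159, with CD3E at 0 counts throughout. These markers moved with treatment, and their part in the changes below was not tested.

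For 12 members an overlapping gene reached 10 CPM or more in some library, and it is not stated whether counting used strand. Partners on the other strand were AP4M1 for MCM7, NINL for GINS1, GSE1 for GINS2, EIF4A2 for RFC4, WSB2 for RFC5, SMYD4 for RPA1, UMAD1 for RPA3, ENOSF1 for TYMS, UBXN6 for CHAF1A and HSD17B6 for PRIM1. NACA overlaps PRIM1, FADS2 overlaps FEN1 and MORC3 overlaps CHAF1B on the same strand. The levels of these 12 genes carry that uncertainty.

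Promoter sequences show how many of the genes carry the letters that E2F factors are known to bind. RefSeq promoter windows on GRCh38.p14 were held for 44 of the 52 members, and RPA2, MCM4, DSCC1, POLD3, GINS4, RPA3, MCM5 and DNA2 were not among them. The strings TTTCCCGC, TTTCGCGC, TTTGCCGC and TTTGGCGC were searched on both strands in the 250 bases before the start. They occurred for 16 of 44 members (36.4%) and for 928 of 27305 genes in the table (3.4%). With 50 bases after the start included, the shares were 50% of members and 3.99% of genes. The 16 were MCM3, MCM6, MCM7, CDT1, GMNN, GINS2, TIPIN, PCNA, RFC3, LIG1, POLA1, POLA2, POLE, TYMS, DUT and UHRF1. CCAAT, on either strand, occurred for 61.4% of members and 37% of all genes, and TTTGAA, the letters of the CHR element of late cell cycle genes, for 4.55% and 16.1%. A match of TTTGGCGC can share 4 bases with one of TTTCGCGC on the other strand, as both matches shown for MCM6 do. Each match below lies upstream of an annotated start, but the flanking bases shown for MCM7 and UHRF1 run past it. Each stretch is 30 bases of RefSeq sequence on the strand of the gene, and capitals mark the matched letters. They are shown because MCM6 held the most matches, MCM7 is a helicase subunit with a match close to its start, GINS2, CDT1 and POLA1 fell at least 2-fold with the combination, PCNA and TYMS are the clamp and thymidylate genes, and UHRF1 differed most between the lines in the PF-06873600 response.
MCM6 (chr2:135876515-135876544, minus strand): cattggtcaggTTTGGCGCgaaatctccag
MCM6 (chr2:135876577-135876606, minus strand): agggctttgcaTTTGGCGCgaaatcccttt
MCM7 (chr7:100101388-100101417, minus strand): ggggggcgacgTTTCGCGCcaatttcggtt
CDT1 (chr16:88803743-88803772, plus strand): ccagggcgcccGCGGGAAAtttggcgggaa
GINS2 (chr16:85688967-85688996, minus strand): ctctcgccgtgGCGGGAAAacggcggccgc
PCNA (chr20:5126663-5126692, minus strand): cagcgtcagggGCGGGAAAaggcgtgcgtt
POLA1 (chrX:24693770-24693799, plus strand): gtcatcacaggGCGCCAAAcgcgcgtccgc
TYMS (chr18:657603-657632, plus strand): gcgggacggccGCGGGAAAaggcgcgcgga
UHRF1 (chr19:4909476-4909505, plus strand): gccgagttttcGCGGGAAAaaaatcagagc
The first MCM6 match lies 90 bases before the start and the other 152, and the match nearest to a start among the 16 genes was at MCM7, 9 bases before it. A match is a description of letters and not a bound site.

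Promoter stretches are also shown for the 4 lowest and the 2 highest of the held members by their PF-06873600 value in A549, as far as they lay outside annotated GENCODE exons. The low end held TK1 (thymidine kinase), DUT and the clamp loader genes RFC1 and RFC4, and the high end RRM2 and CLSPN (claspin). Only the first window held for each gene was examined, and its longest stretch outside exons is shown. DUT had 4 windows and RRM2 and TK1 had 2 each. Exons covered the examined windows of DUT and RRM2, which are not shown. The longest stretch outside exons was 124 bases for TK1 and 37 for RFC4. Capitals mark CCAAT or its reverse complement ATTGG, and none of these 4 stretches held the E2F letters.
TK1 (chr17:78187234-78187357, minus strand): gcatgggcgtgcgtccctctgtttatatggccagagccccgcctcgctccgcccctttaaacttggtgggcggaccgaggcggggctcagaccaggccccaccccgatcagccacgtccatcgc
RFC1 (chr4:39366376-39366612, minus strand): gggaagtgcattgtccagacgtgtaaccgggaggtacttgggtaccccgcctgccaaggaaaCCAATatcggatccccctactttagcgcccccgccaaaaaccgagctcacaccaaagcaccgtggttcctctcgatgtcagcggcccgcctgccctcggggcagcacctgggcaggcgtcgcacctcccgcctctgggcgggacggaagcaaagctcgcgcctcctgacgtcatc
RFC4 (chr3:186806696-186806732, minus strand): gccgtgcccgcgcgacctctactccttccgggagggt
CLSPN (chr1:35769979-35770228, minus strand): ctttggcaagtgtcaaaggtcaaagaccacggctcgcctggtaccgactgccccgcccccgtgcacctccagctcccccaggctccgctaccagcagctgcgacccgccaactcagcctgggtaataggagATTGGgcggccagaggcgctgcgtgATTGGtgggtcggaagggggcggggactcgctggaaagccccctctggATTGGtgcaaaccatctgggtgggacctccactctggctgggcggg
CLSPN held 3 CCAAT matches and RFC1 held 1. The parts shown of TK1 and RFC4 held none, but TK1 held 2 over its full windows.

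Summed over the 52 genes, replication transcripts were lowest in A549 cells with both drugs and highest in untreated SUM159 cells. The sum was 1909 and 1898 CPM in untreated A549, 2273 and 2244 CPM with palbociclib, 2012 and 1976 CPM with indisulam, 1047 and 1029 CPM with the combination and 3037 and 3058 CPM with PF-06873600. In SUM159 it was 6777 and 6549 CPM without drug and 3592 and 3620 CPM with PF-06873600. The combination thus stood at 0.545 of the untreated mean in A549, and PF-06873600 at 1.60 of it in A549 and 0.541 of it in SUM159. Within each line no groups overlapped, and the indisulam and untreated libraries of A549 lay closest together. Each role followed the same order of combination below untreated below PF-06873600 in A549, as the plot of summed levels shows.

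**Figure D1:**
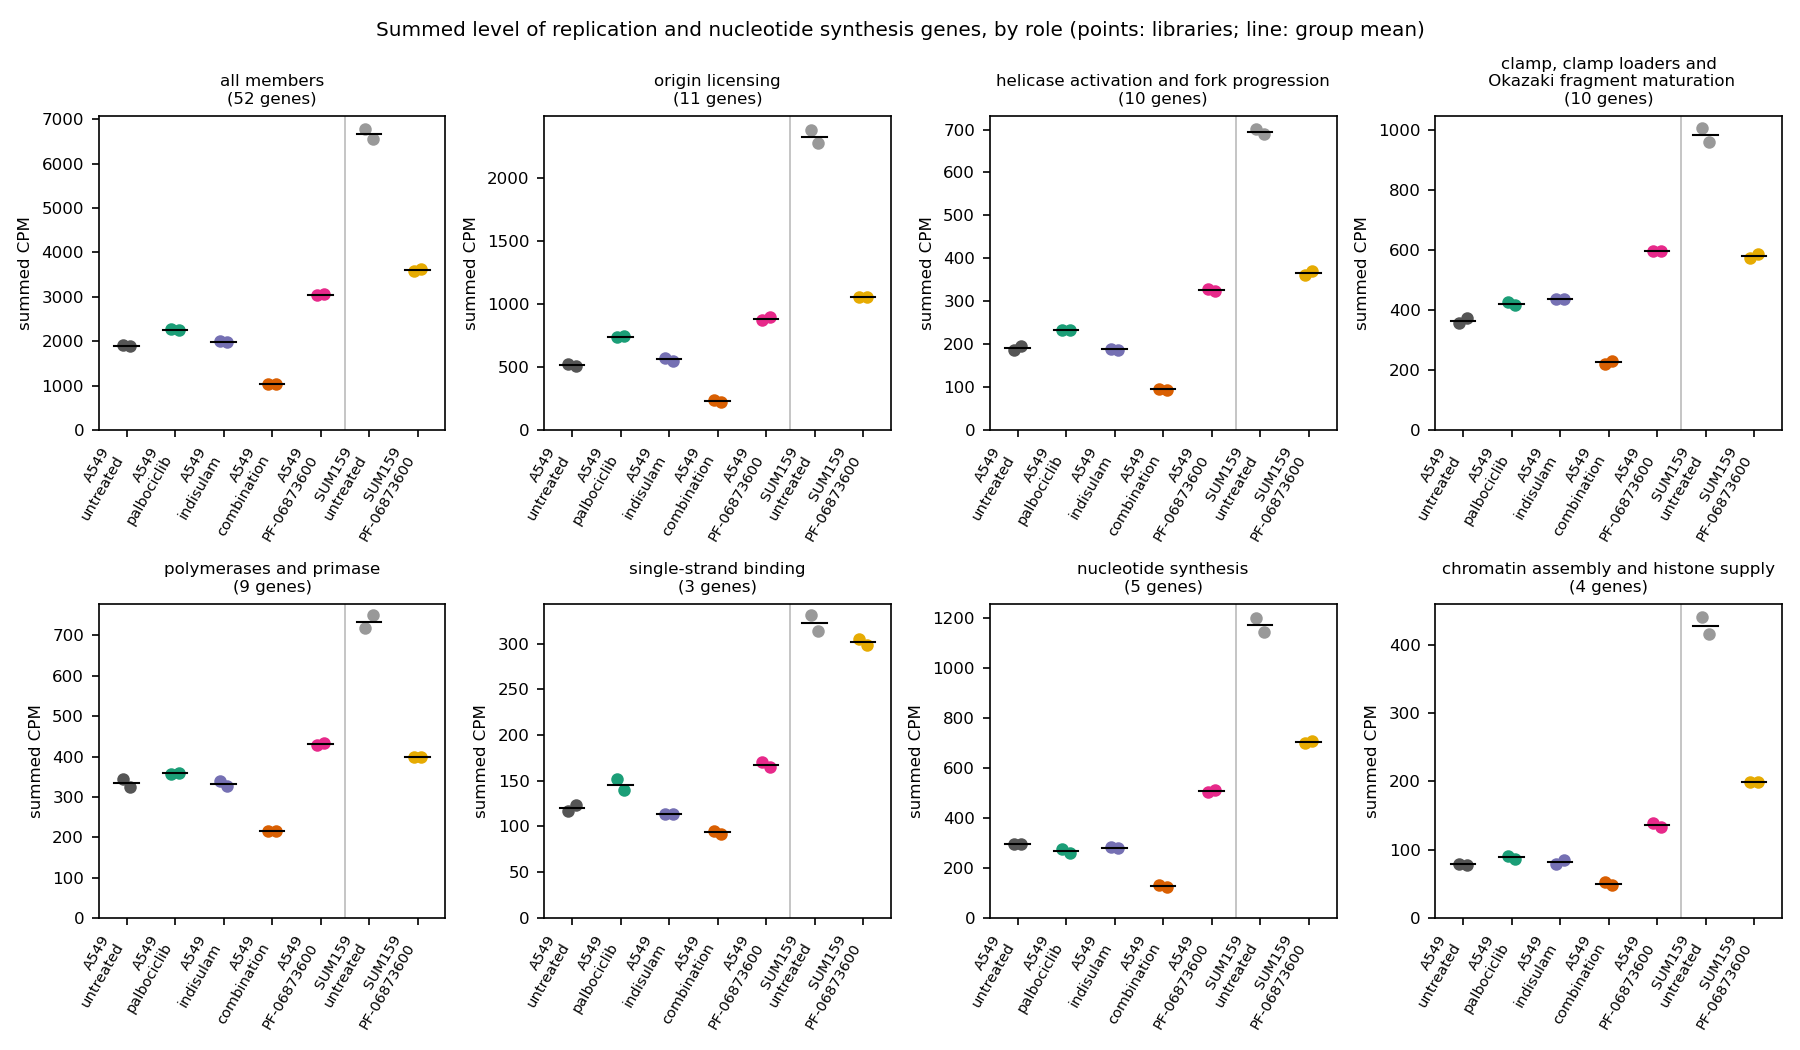
Summed CPM per library (y axes) for all 52 genes and for each of the 7 roles, by group (x axes), with points for the 2 libraries and a line for their mean. The combination is lowest and PF-06873600 highest among the A549 groups in all 8 panels, and PF-06873600 is below untreated in SUM159, by the least for single-strand binding (ratio 0.937).

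Differences were tested gene by gene with edgeR's quasi-likelihood test over all genes, and "rose" and "fell" are used of genes with a Benjamini-Hochberg adjusted p under 0.05. Fold changes are on the log2 scale and are given with the SE. The drug comparisons in A549 share the untreated libraries.

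With palbociclib alone, licensing genes rose in most cases, and few of the 52 genes fell. Of the 52 genes 22 rose, where 8.3% of all 15780 genes tested rose, and 3 fell, where 7.4% of all genes fell. The median log2 fold change was 0.21 over the members and -0.01 over all genes. Rises were called for 9 of 11 genes of origin licensing, 5 of 10 of helicase activation and 5 of 10 of the clamp, and the 3 falls were PRIM1, RRM2 and TYMS. Fewer calls were made with fewer libraries. Without palbociclib replicate 1, 13 members rose, and without palbociclib replicate 2, 15 rose and 1 fell. In a model of only the 4 libraries compared, 10 rose and 1 fell. The genes whose palbociclib call was lost in at least one of these 3 settings were MCM6, MCM7, ORC1, GINS1, GINS3, PCNA, PRIM1, POLD1, LIG1, RPA1, TYMS, DSCC1, TIMELESS and WDHD1. Among them MCM6 had log2 fold changes of 0.28 and 0.24 without palbociclib replicate 1 and 2, against 0.26 with both, whereas PRIM1 had -0.91 and -0.33, against -0.61.

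With indisulam alone members were called in both directions. Of the 52, 11 rose, where 28% of all genes rose, and 10 fell, where 17.5% of all genes fell. The median was 0.03 over the members and 0.08 over all genes. With TMM factors in place of total counts 7 members rose and 14 fell, and the share of rises among the calls over all genes went from 61.6% to 50.4%. Without indisulam replicate 1, 7 members rose, and in a model of only the 4 libraries compared 6 rose and 6 fell.

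With both drugs nearly all of the genes fell. Against untreated cells 46 of 52 fell, where 30% of all genes fell, and 0 rose, where 35.1% of all genes rose. The median was -1.03 over the members and 0.05 over all genes, and 28 members fell at least 2-fold, where 9% of all genes did. The remaining 6 were GINS1, RFC1, PRIM2, POLD1, LIG1 and TIPIN. Without untreated replicate 1, POLD1 was called higher, the 1 rise that any left-out library gave. Against palbociclib alone 50 fell, where 26.9% of all genes fell, and 0 rose, where 33.5% rose, with a median of -1.35. Against indisulam alone 48 fell, where 23.9% of all genes fell, and 0 rose, where 22% rose, with a median of -1.01. Both combination libraries were the lowest of the 10 A549 libraries for 48 of the 52 genes, and for 16.4% of all genes tested. The exceptions were RFC1, PRIM2, POLD1 and LIG1.

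With PF-06873600 the genes rose in A549 and fell in SUM159. In A549 44 rose, where 28.5% of all genes rose, and 2 fell, where 27.8% fell, with a median of 0.78 over the members and -0.01 over all genes. Both PF-06873600 libraries were the highest of the 10 A549 libraries for 43 of the 52, and for 11.6% of all genes. In SUM159 49 fell, where 35.6% of all 15055 genes tested fell, and 1 rose, where 38.1% rose, with a median of -0.97 over the members and 0.02 over all genes. The pair of falls in A549 were RPA3 and TK1, and the rise in SUM159 was PRIM2. In all, 41 genes rose in A549 and fell in SUM159, which is 93.2% of those that rose in A549 and 83.7% of those that fell in SUM159. Among the 13607 genes tested in both lines, 10.5% rose in A549 and fell in SUM159. These 2 comparisons have no library in common.

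Without drug every one of the 52 genes stood higher in SUM159 than in A549. All 52 were called higher, where 41.9% of 17279 genes were, and 0 were called lower, where 36.8% were. The median difference was 1.83 on the log2 scale, against 0.08 over all genes, and 47 members were at least 2-fold higher, where 24.4% of all genes were. With TMM factors the median of all genes moved by -0.11, and the 52 calls stayed. Line, tissue of origin and culture conditions cannot be told apart in this comparison.

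**Figure D2:**
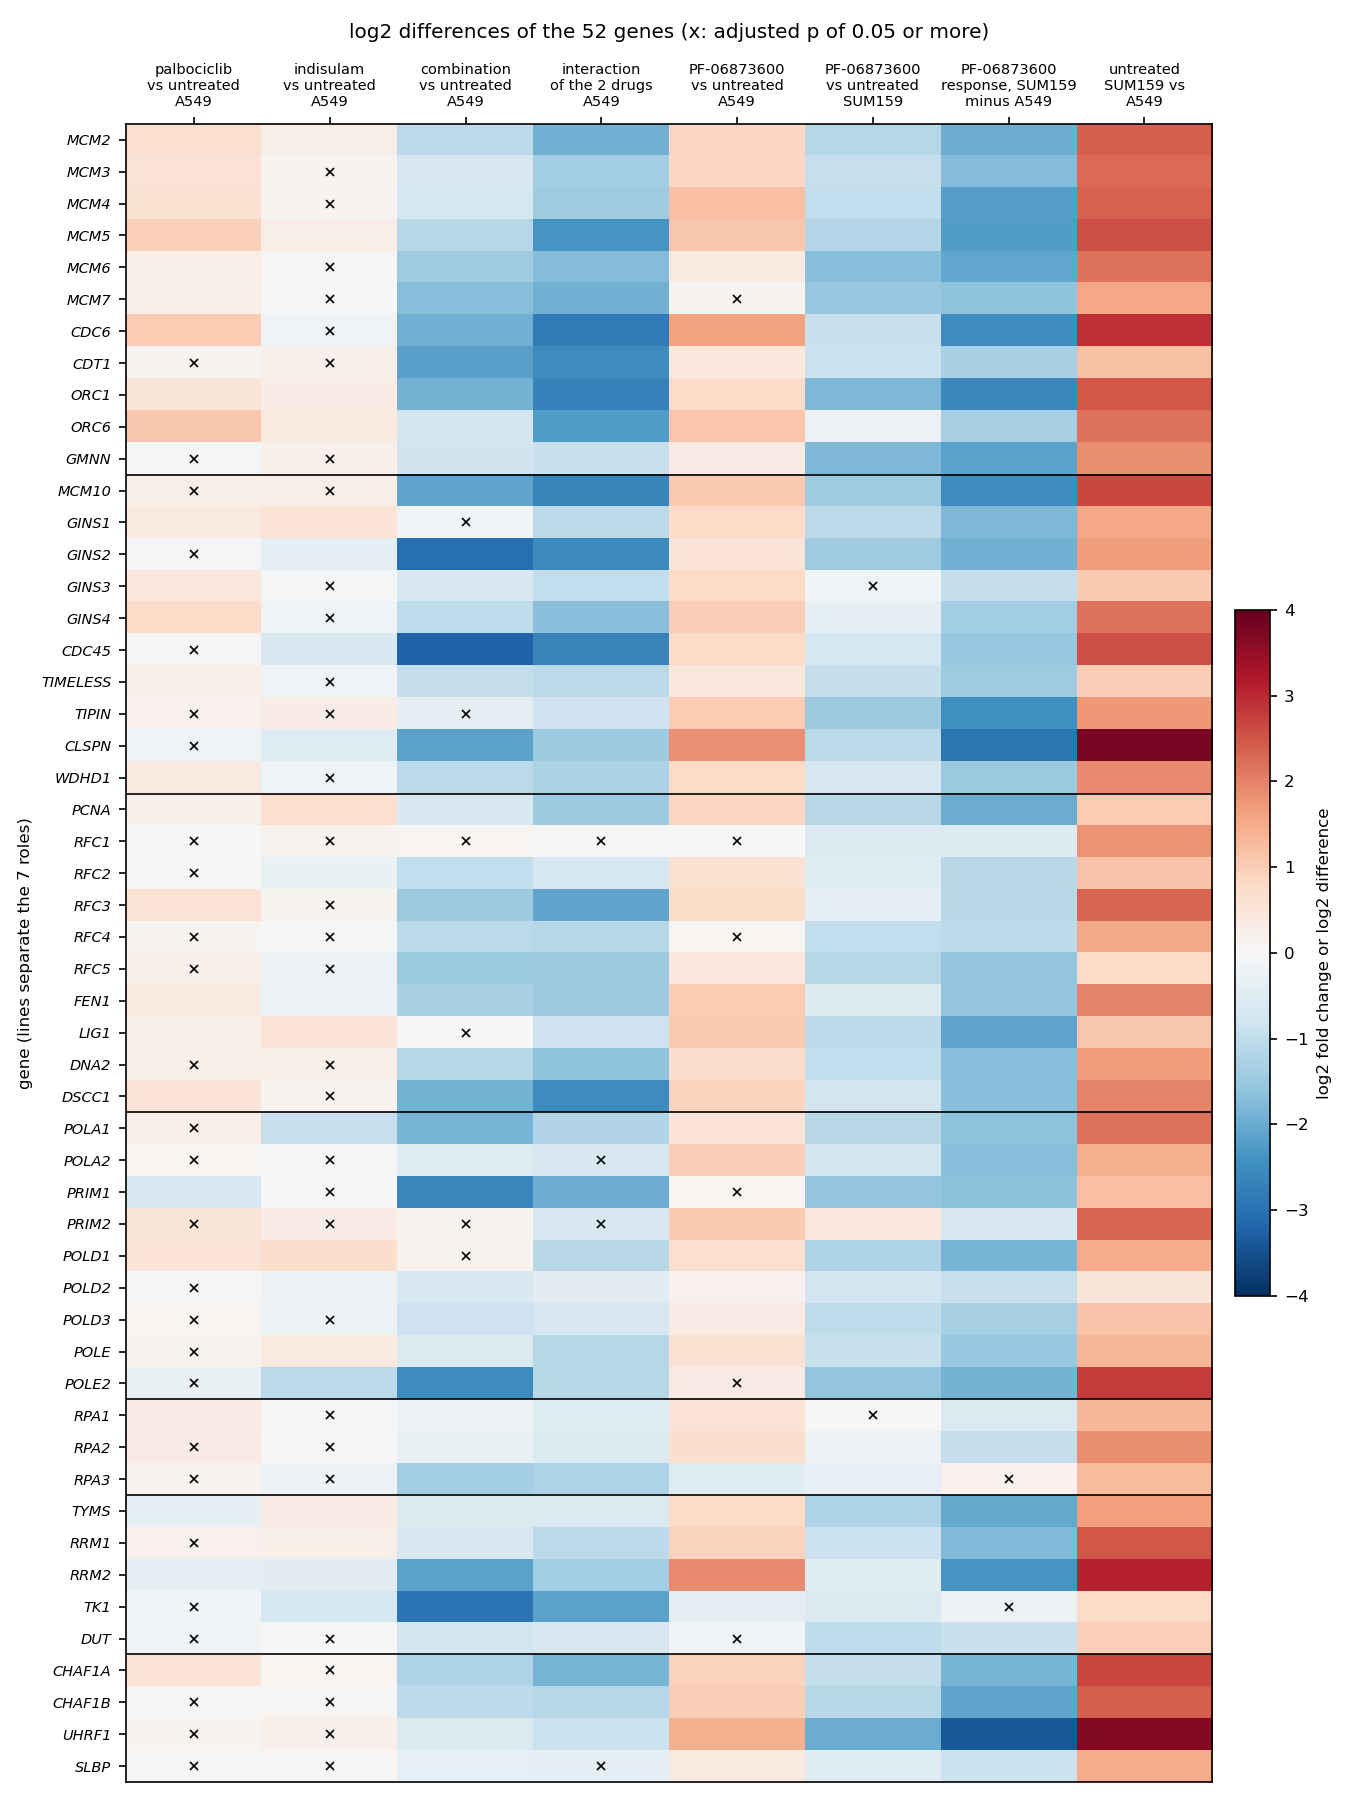
Map of log2 fold changes and log2 differences (colour, from -4 in blue to 4 in red) of the 52 genes (rows, by role) in 8 comparisons (columns), with a cross where the adjusted p was 0.05 or more. Without a cross, the combination column holds 46 blue cells, and the PF-06873600 column holds 44 red cells in A549 and 49 blue cells in SUM159.

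Origin licensing genes rose with palbociclib, fell with the combination, rose with PF-06873600 in A549 and fell with it in SUM159. Of the 11 genes, 9 rose with palbociclib, 4 with indisulam, 11 fell with the combination, 10 rose with PF-06873600 in A549 and 11 fell with it in SUM159. Their median log2 fold changes in this order were 0.58, 0.20, -1.13, 0.82 and -1.13. Over all genes tested 8.3% rose with palbociclib, 28% rose with indisulam and 30% fell with the combination. With PF-06873600, 28.5% rose in A549 and 35.6% fell in SUM159, and these shares also apply to the role counts below. The 4 indisulam calls, MCM2, MCM5, ORC1 and ORC6, were lost with DESeq2 in place of edgeR and in a model of only the compared groups.

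The MCM2-7 subunits form 1 ring of 6 proteins, and all 6 transcripts fell with the combination. MCM2 stood at 50.7 and 48.5 CPM in untreated A549 cells, 76.8 and 77.7 with palbociclib, 57.02 and 60.6 with indisulam, 24.4 and 24.01 with the combination and 82.5 and 92.1 with PF-06873600. In SUM159 it stood at 267 and 256 CPM in untreated and 117 and 121 in treated SUM159 cells. No groups overlapped. Its log2 fold change was -1.03 ± 0.08 with the combination, 0.82 ± 0.07 with PF-06873600 in A549 and -1.13 ± 0.06 with it in SUM159. MCM3 stood at 72.4 and 76.7 CPM in untreated A549 cells, 107 and 116 with palbociclib, 89.2 and 75.7 with indisulam, 47.7 and 45.95 with the combination and 130.4 and 134 with PF-06873600, with 1 of the indisulam libraries between the untreated ones. In SUM159 it stood at 362 and 351 CPM in untreated and 189 and 189.8 in treated SUM159 cells, and its log2 fold changes in the 3 comparisons were -0.67 ± 0.08, 0.83 ± 0.08 and -0.91 ± 0.06. MCM4 stood at 85.8 and 81.5 CPM in untreated A549 cells, 128 and 129 with palbociclib, 89.98 and 89.3 with indisulam, 50.9 and 52.5 with the combination and 192 and 195 with PF-06873600, and at 439.5 and 414 CPM in untreated and 216 and 216 in treated SUM159 cells. It rose most of the 6 with PF-06873600 in A549, by 1.21 ± 0.06, and its combination libraries were below all others of the line (-0.69 ± 0.06).

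MCM5 had the highest palbociclib value of the 6. It stood at 40.8 and 36.5 CPM in untreated A549 cells, 74.95 and 73.2 with palbociclib, 48.2 and 45.7 with indisulam, 18.4 and 17.1 with the combination and 78.4 and 84.2 with PF-06873600, and at 232 and 227 CPM in untreated and 104 and 99.3 in treated SUM159 cells. Its log2 fold change was 0.94 ± 0.08 with palbociclib, -1.13 ± 0.09 with the combination, 1.07 ± 0.08 with PF-06873600 in A549 and -1.18 ± 0.06 in SUM159. MCM6 and MCM7 had the lowest values of the 6 in each of these 4 comparisons. MCM6 stood at 47.4 and 45.4 CPM in untreated A549 cells, 54.6 and 56.3 with palbociclib, 51.4 and 43.9 with indisulam, 18.3 and 16.4 with the combination and 58.8 and 60.3 with PF-06873600, and at 217 and 202 CPM in untreated and 62.6 and 65.2 in treated SUM159 cells. It fell by 1.42 ± 0.09 with the combination, rose by 0.36 ± 0.08 with PF-06873600 in A549, and its treated SUM159 libraries overlapped no other SUM159 library (-1.71 ± 0.06). MCM7 stood at 141 and 129.8 CPM in untreated A549 cells, 156 and 159 with palbociclib, 137 and 136 with indisulam, 41.3 and 41.9 with the combination and 147 and 142 with PF-06873600, so that the PF-06873600 libraries were only just above the untreated pair (0.10 ± 0.06, adjusted p = 0.167, not called). In SUM159 MCM7 stood at 412 and 382 CPM in untreated and 140.5 and 137 in treated SUM159 cells, and its log2 fold changes were -1.70 ± 0.06 with the combination and -1.52 ± 0.06 with PF-06873600 in SUM159. Scaled by transcript length, MCM7 was the highest of the 6 in every group but treated SUM159, where MCM3 was. The highest subunit stood 4.9 times above the lowest in CPM per kb in untreated A549 (54.8 against 11.2) and 2.88 times in untreated SUM159 (161 against 55.9).

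**Figure D3:**
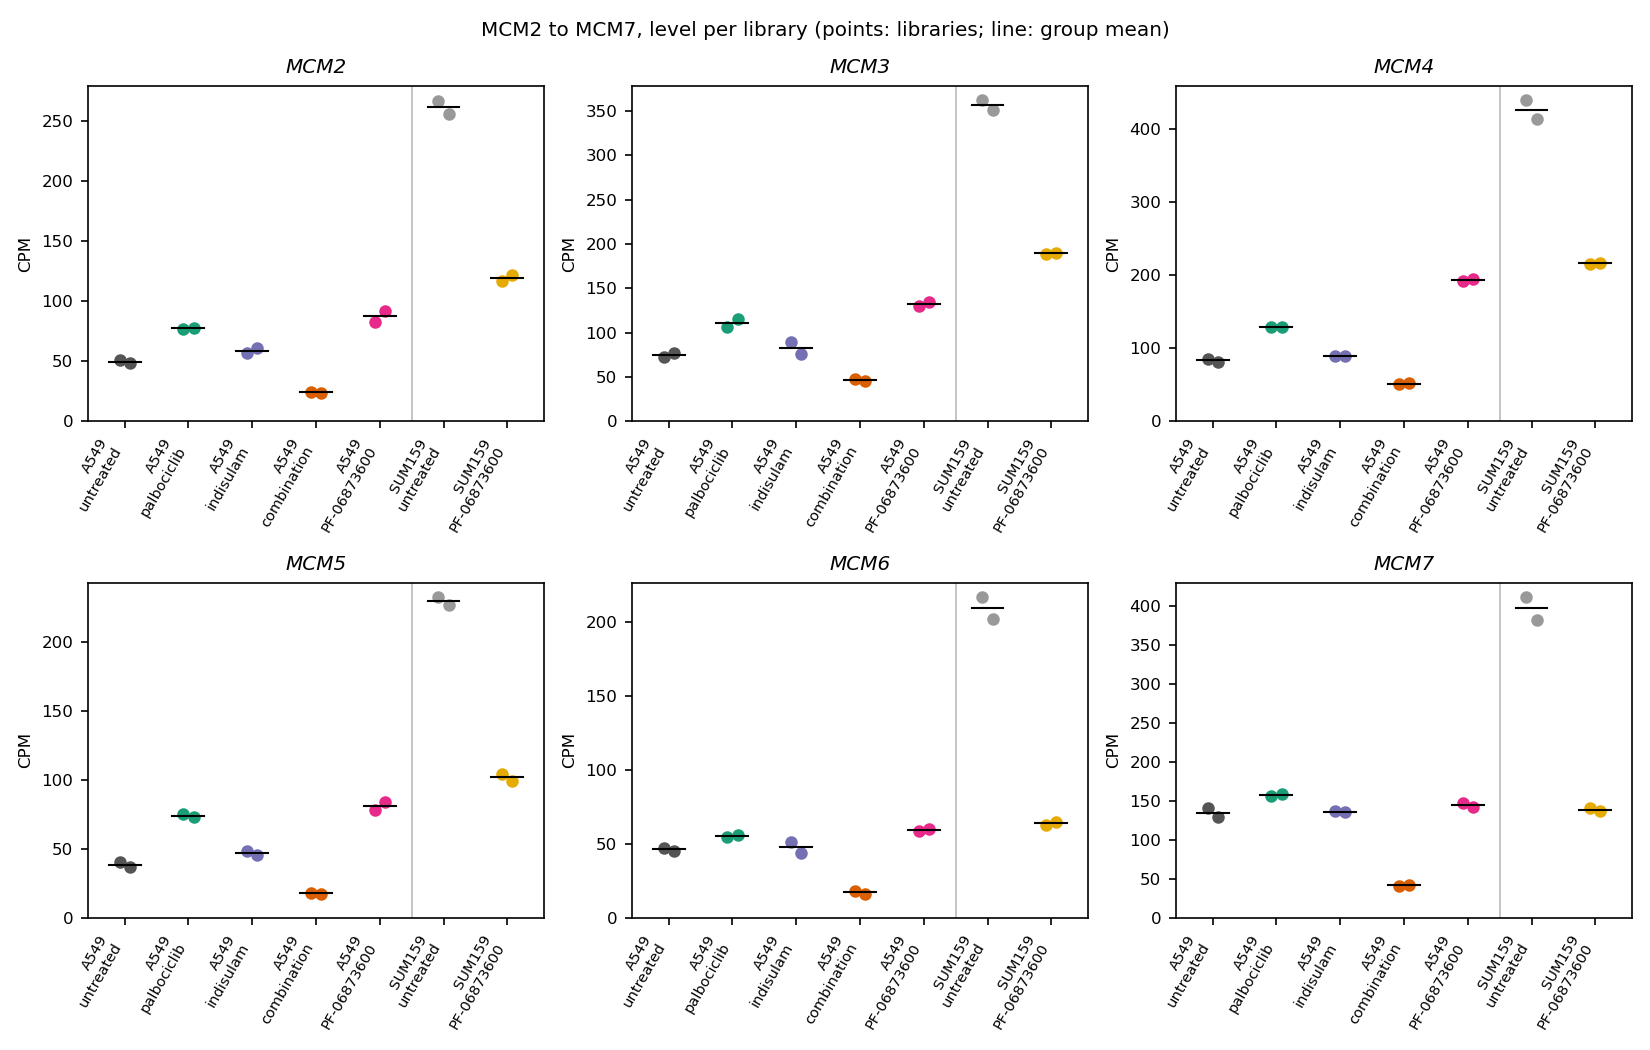
CPM of MCM2 to MCM7 per library (y axes, from 0) in the 7 groups (x axes), with points for libraries and a line for their mean. For each of the 6 genes the combination libraries lie below all other A549 libraries, and untreated SUM159 lies above all other groups.

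CDC6 loads the helicase together with ORC and CDT1. It stood at 27.9 and 32.8 CPM in untreated A549 cells, 64.9 and 57.97 with palbociclib, 29.8 and 25.5 with indisulam, 8.15 and 7.92 with the combination and 88.7 and 94.97 with PF-06873600. In SUM159 it stood at 236 and 227 CPM in untreated and 124 and 129 in treated SUM159 cells. It rose by 1.01 ± 0.10 with palbociclib (adjusted p = 6.57e-06), fell with the combination (-1.92 ± 0.12) and rose by 1.60 ± 0.09 with PF-06873600 in A549. CDT1, its partner in loading, stood at 26.3 and 20.6 CPM in untreated A549 cells, 23.9 and 26.7 with palbociclib, 26.6 and 27.5 with indisulam, 5.60 and 4.76 with the combination and 31.8 and 31.5 with PF-06873600, so that the palbociclib and untreated libraries overlapped. It stood at 54.3 and 50.9 CPM in untreated and 27.8 and 29.9 in treated SUM159 cells, and fell with the combination by 2.18 ± 0.14 on the log2 scale. ORC1, the subunit of the origin recognition complex that is supplied anew in each cycle, stood at 11.01 and 11.1 CPM in untreated A549 cells, 16.03 and 15.2 with palbociclib, 13.3 and 14.01 with indisulam, 3.05 and 2.90 with the combination and 18.8 and 19.3 with PF-06873600. It stood at 61.6 and 62.6 CPM in untreated and 18 and 18.01 in treated SUM159 cells, one of the 3 largest falls with PF-06873600 in SUM159 (-1.78 ± 0.07). ORC6 stood at 9.52 and 9.87 CPM in untreated A549 cells, 20.04 and 21.2 with palbociclib, 12.99 and 12.3 with indisulam, 6.45 and 5.08 with the combination and 21.7 and 20.03 with PF-06873600. Its palbociclib and PF-06873600 libraries overlapped, both above the untreated pair, and it gave the largest palbociclib rise of all 52 genes (1.09 ± 0.12). In SUM159 ORC6 stood at 40.95 and 46.9 CPM in untreated and 39.9 and 35.5 in treated SUM159 cells, and its small fall (-0.22 ± 0.08, adjusted p = 0.0239) was lost when untreated replicate 2 or treated replicate 2 was left out (log2 fold changes of -0.125 and -0.138, adjusted p = 0.163 and 0.237). GMNN (geminin), the inhibitor of CDT1, stood at 14.8 and 16.4 CPM in untreated A549 cells, 14.5 and 14.9 with palbociclib, 17.4 and 18.4 with indisulam, 10.8 and 7.40 with the combination and 20.1 and 19.3 with PF-06873600, and at 57.9 and 55.4 CPM in untreated and 17.3 and 15.2 in treated SUM159 cells. It fell in SUM159 by 1.81 ± 0.08, the fall second to that of UHRF1, while its rise in A549 (0.33 ± 0.13, adjusted p = 0.0404) was lost without either PF-06873600 library or without untreated replicate 1 (adjusted p = 0.153, 0.103 and 0.13).

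Helicase activation held the 2 lowest values with the combination, those of CDC45 and GINS2. Of its 10 genes 8 fell with the combination, 6 of them at least 2-fold, 10 rose with PF-06873600 in A549 and 9 fell with it in SUM159. CDC45, which joins MCM2-7 in the active helicase, stood at 10.8 and 12.9 CPM in untreated A549 cells, 11.6 and 13.1 with palbociclib, 6.91 and 8.39 with indisulam, 1.21 and 1.29 with the combination and 20.5 and 20.9 with PF-06873600. The combination libraries, with 17 and 20 counts, were far below the untreated pair (-3.24 ± 0.20, adjusted p = 2.28e-09), the largest fall of all 52. CDC45 also fell with indisulam alone (-0.63 ± 0.14) and had a value of 0.06 ± 0.13 with palbociclib (adjusted p = 0.826, not called). In SUM159 it stood at 70.2 and 70.2 CPM in untreated and 42.4 and 43.4 in treated SUM159 cells.

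The 4 GINS subunits form 1 complex, and their log2 fold changes with the combination ran from -3.02 to -0.11. GINS2 stood at 13.8 and 16.5 CPM in untreated A549 cells, 15.1 and 13.8 with palbociclib, 10.9 and 12.2 with indisulam, 2.13 and 1.61 with the combination and 21.2 and 22.1 with PF-06873600, the combination libraries resting on 30 and 25 counts. It stood at 49.6 and 47.97 CPM in untreated and 17.9 and 18.6 in treated SUM159 cells, with log2 fold changes of -3.02 ± 0.17 for the combination and -1.42 ± 0.07 for PF-06873600 in SUM159. GINS1 stood at 25.3 and 26.9 CPM in untreated A549 cells, 35.2 and 33.5 with palbociclib, 36.3 and 39.9 with indisulam, 24.04 and 24.3 with the combination and 44.9 and 44.2 with PF-06873600, and its combination libraries lay just below the untreated pair (-0.11 ± 0.09, adjusted p = 0.266, not called). It stood at 80.6 and 73.1 CPM in untreated and 37.8 and 37.2 in treated SUM159 cells, and rose with indisulam by 0.54 ± 0.08. GINS3 stood at 12.4 and 12.5 CPM in untreated A549 cells, 16.9 and 17.4 with palbociclib, 12.2 and 11.3 with indisulam, 7.59 and 8.56 with the combination and 21.4 and 21.5 with PF-06873600. In SUM159 GINS3 stood at 25.6 and 25.5 CPM in untreated and 21.8 and 23.6 in treated SUM159 cells, the treated libraries just below the untreated pair (-0.17 ± 0.09, adjusted p = 0.0895, not called). GINS4 lay between these, with log2 fold changes of -1.03 ± 0.13 for the combination and -0.40 ± 0.07 for PF-06873600 in SUM159.

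Fork progression held the gene with the highest level in untreated SUM159 relative to A549. CLSPN (claspin), the mediator between the fork and the checkpoint kinase CHK1, stood at 7.41 and 8.53 CPM in untreated A549 cells, 6.83 and 7.26 with palbociclib, 5.60 and 5.62 with indisulam, 1.99 and 1.61 with the combination and 28.9 and 27.8 with PF-06873600. The combination libraries held 28 and 25 counts. In SUM159 CLSPN stood at 105 and 110.1 CPM in untreated and 50.5 and 50.9 in treated SUM159 cells. Its log2 fold change was -2.15 ± 0.17 with the combination, 1.83 ± 0.11 with PF-06873600 in A549 and -1.08 ± 0.06 in SUM159. MCM10, TIMELESS, TIPIN and WDHD1 completed the role. MCM10, which helps to fire origins, fell by 2.12 ± 0.15 with the combination. TIPIN, the partner of TIMELESS, was the 1 of these 4 that did not pass the test with the combination (-0.37 ± 0.17, adjusted p = 0.0666).

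Among the clamp, clamp loaders and Okazaki fragment enzymes, 8 of 10 fell with the combination, 8 rose with PF-06873600 in A549 and 10 fell with it in SUM159. PCNA, the sliding clamp, stood at 116 and 119 CPM in untreated A549 cells, 138 and 131 with palbociclib, 184 and 188 with indisulam, 74.7 and 79.2 with the combination and 210.2 and 216 with PF-06873600. It rose with indisulam by 0.66 ± 0.06, and its combination libraries were the lowest of the line (-0.61 ± 0.06). In SUM159 PCNA stood at 248 and 231 CPM in untreated and 109 and 111 in treated SUM159 cells. The clamp loader has 5 subunits. RFC3 stood at 17.7 and 18.9 CPM in untreated A549 cells, 26.4 and 28.1 with palbociclib, 20.3 and 19.2 with indisulam, 6.24 and 7.21 with the combination and 30.9 and 30.5 with PF-06873600, and at 93.6 and 88.7 CPM in untreated and 67.9 and 72.1 in treated SUM159 cells. It fell with the combination by 1.44 ± 0.11 and rose with palbociclib by 0.57 ± 0.09. RFC1, the large subunit, stood at 41.7 and 46.1 CPM in untreated A549 cells, 45.9 and 43.5 with palbociclib, 45.3 and 50.7 with indisulam, 43.04 and 50.1 with the combination and 43.95 and 43.03 with PF-06873600, the untreated range overlapping that of each drug group. In SUM159 RFC1 stood at 158 and 148 CPM in untreated and 107 and 101 in treated SUM159 cells, a fall (-0.56 ± 0.06). RFC4 and RFC5 fell with the combination with log2 fold changes of -1.07 and -1.48, and RFC2 fell to 49.98% of untreated.

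Of the Okazaki fragment enzymes, FEN1 fell with the combination and LIG1 did not pass the test. FEN1, the flap nuclease, stood at 47.3 and 50.3 CPM in untreated A549 cells, 63.7 and 62.1 with palbociclib, 45.3 and 39.5 with indisulam, 19.9 and 19.7 with the combination and 99.2 and 97.6 with PF-06873600, and at 199 and 185 CPM in untreated and 124 and 133 in treated SUM159 cells. Its log2 fold changes were -1.30 ± 0.08 for the combination, 1.01 ± 0.07 for PF-06873600 in A549 and -0.58 ± 0.06 in SUM159. LIG1, which seals the nicks, stood at 34.8 and 32.6 CPM in untreated A549 cells, 39.3 and 41.8 with palbociclib, 51.6 and 45.7 with indisulam, 32.9 and 33.5 with the combination and 70.2 and 69.5 with PF-06873600, the combination libraries within the untreated range (-0.02 ± 0.08, adjusted p = 0.828). In SUM159 LIG1 stood at 68.9 and 73.2 CPM in untreated and 35.7 and 33.4 in treated SUM159 cells, with log2 fold changes of 1.05 ± 0.08 in A549 and -1.04 ± 0.07 in SUM159. DSCC1, a subunit of an alternative clamp loader, and DNA2 fell with the combination (-1.88 and -1.15).

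Among the polymerases and primase, 7 of 9 genes fell with the combination, 3 of them at least 2-fold, 7 rose with PF-06873600 in A549, and 8 fell and 1 rose with it in SUM159. POLA1, the catalytic subunit of polymerase alpha, stood at 25.1 and 28.3 CPM in untreated A549 cells, 31.6 and 32.03 with palbociclib, 14.5 and 13.8 with indisulam, 7.02 and 7.72 with the combination and 38.6 and 36.97 with PF-06873600. It fell with indisulam alone (-0.91 ± 0.10) and further with the combination (-1.85 ± 0.11). In SUM159 POLA1 stood at 120.1 and 120.4 CPM in untreated and 55.8 and 56.03 in treated SUM159 cells. Primase has a catalytic and a regulatory subunit. PRIM1, the catalytic one, stood at 9.18 and 11.3 CPM in untreated A549 cells, 8.16 and 5.43 with palbociclib, 9.88 and 10.6 with indisulam, 1.49 and 1.87 with the combination and 11.3 and 10.5 with PF-06873600, and at 24.1 and 23.4 CPM in untreated and 9.12 and 7.14 in treated SUM159 cells. It fell with the combination by 2.60 ± 0.23 and gave the lowest value of palbociclib (-0.61 ± 0.18, adjusted p = 0.0323), a call lost without palbociclib replicate 2 (adjusted p = 0.329) and without untreated replicate 2 (adjusted p = 0.132). PRIM2, its partner, stood at 4.62 and 6.47 CPM in untreated A549 cells, 7.495 and 7.99 with palbociclib, 7.19 and 6.54 with indisulam, 5.53 and 6.63 with the combination and 12.1 and 10.8 with PF-06873600, untreated and combination libraries overlapping. In SUM159 PRIM2 stood at 29.4 and 26.3 CPM in untreated and 37.2 and 36.9 in treated SUM159 cells, the 1 member that rose there (0.41 ± 0.08, adjusted p = 0.000231).

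POLE2, the small subunit of polymerase epsilon, was scarce in A549. It stood at 3.60 and 4.60 CPM in untreated A549 cells, 3.27 and 3.36 with palbociclib, 1.80 and 2.12 with indisulam, 0.567 and 0.837 with the combination and 5.21 and 5.01 with PF-06873600, the combination libraries resting on 8 and 13 counts. It had the lowest log2 fold change with indisulam of all members (-1.06 ± 0.22) and fell with the combination by 2.52 ± 0.27. In SUM159 POLE2 stood at 29.7 and 27.2 CPM in untreated and 9.41 and 9.50 in treated SUM159 cells. POLD1, the catalytic subunit of polymerase delta, stood at 35.4 and 21.1 CPM in untreated A549 cells, 41.3 and 39.8 with palbociclib, 46.7 and 46.1 with indisulam, 31.3 and 30.6 with the combination and 45.4 and 42.4 with PF-06873600, and its untreated A549 libraries disagreed more than its treated ones. Its indisulam value (0.72 ± 0.15) was the highest of the 52, but was 0.39 without untreated replicate 2 and 1.14 without untreated replicate 1, and 0.39 is below the values of PCNA (0.66) and GINS1 (0.54) over all libraries. In SUM159 POLD1 stood at 74.3 and 83.7 CPM in untreated and 31.98 and 35.5 in treated SUM159 cells. POLD2, an accessory subunit and the highest member per kb in untreated A549 (106 ± 2.23 CPM per kb, SD, n = 2), stood at 173 and 168 CPM in untreated A549 cells, 171 and 172 with palbociclib, 150.3 and 148 with indisulam, 114 and 110.3 with the combination and 187 and 197 with PF-06873600. In SUM159 POLD2 stood at 241 and 236 CPM in untreated and 145 and 138 in treated SUM159 cells, and it had the smallest difference between the untreated lines of all 52 (0.48 ± 0.05). POLA2, POLD3 and POLE had log2 fold changes of -0.52, -0.81 and -0.59 with the combination, and the call of POLA2 was lost without combination replicate 2 (-0.33, adjusted p = 0.271) and without untreated replicate 1 (adjusted p = 0.202).

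All 3 subunits of RPA, which coats single-stranded DNA, fell with the combination, 1 of them at least 2-fold. RPA1 stood at 79.9 and 82.5 CPM in untreated A549 cells, 103 and 96.9 with palbociclib, 76.99 and 79.3 with indisulam, 69.6 and 68.8 with the combination and 124 and 117 with PF-06873600. In SUM159 RPA1 stood at 209.9 and 197 CPM in untreated and 207 and 200.1 in treated SUM159 cells, untreated and treated libraries overlapping (-0.00 ± 0.06, adjusted p = 0.994). RPA3, the smallest subunit, stood at 16.3 and 19.3 CPM in untreated A549 cells, 18.9 and 19.2 with palbociclib, 15.96 and 14.8 with indisulam, 7.23 and 6.76 with the combination and 12.2 and 13.1 with PF-06873600, and at 40.9 and 43.8 CPM in untreated and 33.4 and 34.6 in treated SUM159 cells. It was one of the pair of members that fell with PF-06873600 in A549 (-0.49 ± 0.11, adjusted p = 0.0018), and it fell with the combination (-1.35 ± 0.12). RPA2 fell with the combination by 0.29 ± 0.12 (adjusted p = 0.0408), a call lost whichever of the 4 libraries was left out (adjusted p = 0.0506 to 0.245).

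Nucleotide synthesis genes fell with the combination in 5 of 5 cases and fell in SUM159 with PF-06873600 in 5 of 5, whereas in A549 with PF-06873600 3 rose and 1 fell. RRM2, the S phase subunit of ribonucleotide reductase, stood at 49.5 and 53.4 CPM in untreated A549 cells, 40.2 and 38.99 with palbociclib, 39.7 and 37.9 with indisulam, 11.7 and 11.4 with the combination and 189.7 and 189 with PF-06873600. Its PF-06873600 libraries were well above all others of the line, the largest rise of the 52 (1.88 ± 0.06, adjusted p = 1.21e-11), and its combination libraries well below (-2.16 ± 0.08). In SUM159 RRM2 stood at 454 and 419.9 CPM in untreated and 315 and 308 in treated SUM159 cells, a fall (-0.49 ± 0.06). RRM1, the large subunit, stood at 54.2 and 54.6 CPM in untreated A549 cells, 63.97 and 57.9 with palbociclib, 65.5 and 63.4 with indisulam, 33.8 and 36.5 with the combination and 102 and 102 with PF-06873600, and at 312 and 300.4 CPM in untreated and 167 and 172 in treated SUM159 cells. Its log2 fold changes were -0.63 ± 0.07 for the combination and 0.91 ± 0.07 for PF-06873600 in A549, so both subunits fell with the combination and rose with PF-06873600 in A549.

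Thymidylate is made from deoxyuridylate or salvaged from thymidine. TYMS, which makes thymidylate from deoxyuridylate, stood at 59.5 and 68.1 CPM in untreated A549 cells, 51.2 and 48.9 with palbociclib, 77.5 and 83.5 with indisulam, 45.8 and 39.6 with the combination and 110.3 and 111 with PF-06873600, and at 209 and 192 CPM in untreated and 84.7 and 84.3 in treated SUM159 cells. It fell with palbociclib by 0.35 ± 0.08 (adjusted p = 0.0111), a call lost without palbociclib replicate 2 (adjusted p = 0.0979). It rose with indisulam by 0.34 ± 0.08 and with PF-06873600 in A549 by 0.80 ± 0.08. TK1, which salvages thymidine, stood at 87.8 and 75.5 CPM in untreated A549 cells, 75.3 and 76.4 with palbociclib, 52.5 and 48.1 with indisulam, 11.8 and 9.40 with the combination and 59.6 and 65.5 with PF-06873600. Untreated libraries were high, indisulam libraries lower and combination libraries far below (-2.95 ± 0.11), and TK1 fell with PF-06873600 in both lines (-0.38 ± 0.09 in A549 and -0.57 ± 0.06 in SUM159). In SUM159 it stood at 137 and 142 CPM in untreated and 90.3 and 97.3 in treated SUM159 cells. DUT, the dUTPase that makes the deoxyuridylate used by TYMS, stood at 45.9 and 45.4 CPM in untreated A549 cells, 44.3 and 38.5 with palbociclib, 47.4 and 44.5 with indisulam, 27.9 and 25.4 with the combination and 40.2 and 43.5 with PF-06873600, the PF-06873600 libraries just below the untreated pair (-0.12 ± 0.09, adjusted p = 0.236, not called). In SUM159 DUT stood at 88.5 and 89 CPM in untreated and 41.3 and 46.2 in treated SUM159 cells, a fall (-1.02 ± 0.07).

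Chromatin assembly genes all fell with the combination, all rose with PF-06873600 in A549 and all fell with it in SUM159. CHAF1A, a subunit of the chromatin assembly factor that follows PCNA, stood at 20.6 and 16.6 CPM in untreated A549 cells, 27.5 and 26.4 with palbociclib, 19.4 and 20.2 with indisulam, 8.08 and 7.79 with the combination and 33.5 and 36.1 with PF-06873600, and at 120.4 and 115 CPM in untreated and 59.98 and 61.6 in treated SUM159 cells. Its log2 fold changes were -1.23 ± 0.12, 0.91 ± 0.10 and -0.95 ± 0.06 in the 3 comparisons, and those of CHAF1B were -1.06 ± 0.13, 0.99 ± 0.11 and -1.13 ± 0.07. UHRF1, which guides maintenance DNA methylation behind the fork, stood at 12.3 and 10.4 CPM in untreated A549 cells, 11.6 and 12.7 with palbociclib, 12.99 and 13.02 with indisulam, 7.09 and 8.11 with the combination and 32.5 and 28.1 with PF-06873600. In SUM159 UHRF1 stood at 148 and 139.9 CPM in untreated and 34.1 and 38.8 in treated SUM159 cells, the largest fall of the 52 there (-1.98 ± 0.07, adjusted p = 2.59e-12), and it rose in A549 (1.41 ± 0.12). SLBP, which binds the stem-loop of histone messages, stood at 34.5 and 37.5 CPM in untreated A549 cells, 39.5 and 34.8 with palbociclib, 34.3 and 39.3 with indisulam, 31.3 and 26.1 with the combination and 47.8 and 46 with PF-06873600, and at 103 and 98.1 CPM in untreated and 74.01 and 70.6 in treated SUM159 cells. Its fall with the combination (-0.33 ± 0.10, adjusted p = 0.0127) was lost without combination replicate 2 (-0.20, adjusted p = 0.182) and without untreated replicate 2 (adjusted p = 0.0518).

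Whether both drugs changed the genes by more than the sum of the single drugs was tested as an interaction on the log2 scale in A549. Of the 52, 48 fell below the sum, where 14.5% of all genes did, and 0 rose above it, where 10.7% did. The sum of the single-drug log2 fold changes had a median of 0.25 and ran from -1.37 to 1.47, while the combination had a median of -1.03 and ran from -3.24 to 0.14. The median interaction was -1.26 over the members and -0.02 over all genes, and 36 members lay at least 2-fold below the sum, where 3.9% of all genes did. CDC6 had the lowest interaction, -2.80 ± 0.16 (adjusted p = 1.87e-08), followed by ORC1 at -2.69 ± 0.17 and CDC45 at -2.67 ± 0.25. CDC6 and ORC1 rose with palbociclib alone, and CDC45 did not pass that test. RFC1 was nearest to the sum (-0.07 ± 0.13, adjusted p = 0.759), followed by SLBP (-0.41 ± 0.14, adjusted p = 0.0556), neither of which was called, and POLD2 (-0.42 ± 0.08, adjusted p = 0.00114), which was. POLA2 and PRIM2 also did not pass, at -0.60 ± 0.28 and -0.65 ± 0.24. By role, origin licensing had the lowest median interaction (-1.93, 11 of 11 called) and single-strand binding the least negative (-0.54, 3 of 3 called). Leaving out 1 library at a time gave 45 to 50 calls, and POLE2, RPA2 and TIPIN were the genes that lost theirs.

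**Figure D4:**
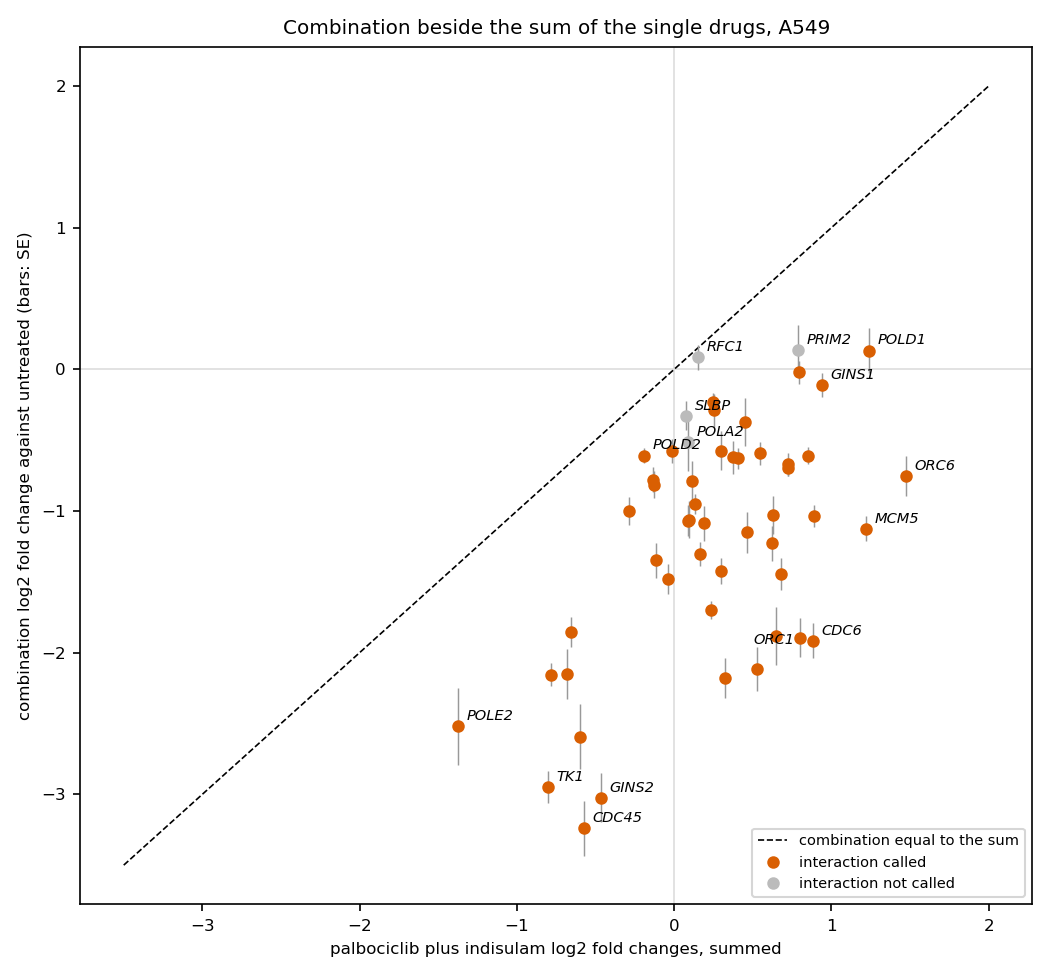
The combination's log2 fold change against untreated A549 (y axis, bars are SE) beside the sum of the palbociclib and indisulam log2 fold changes (x axis) for the 52 genes, with a dashed line where both are equal. All 52 points lie below the line, 48 of them with a called interaction, and RFC1 lies closest to it.

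The response to PF-06873600 was compared between the lines at the same dose and duration by an interaction over all 14 libraries. SUM159 responded below A549 for 50 of 52 genes, where 27.2% of all genes did, and above it for 0, where 25.8% did. The median difference was -1.65 over the members and 0.04 over all genes, and 42 members were at least 2-fold lower, where 11.1% of all genes were. UHRF1 differed most, -3.39 ± 0.14 (adjusted p = 3.25e-13), followed by CLSPN at -2.91 ± 0.12 and ORC1 at -2.57 ± 0.12. RPA3 and TK1 did not pass, at 0.17 ± 0.13 (adjusted p = 0.3) and -0.19 ± 0.11 (adjusted p = 0.171), and the smallest called difference was that of RFC1, -0.54 ± 0.11. Without untreated A549 replicate 1, TK1 passed and PRIM2 did not (log2 differences -0.30 and -0.41).

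CLSPN stood 3.75 ± 0.09 higher in untreated SUM159 than in untreated A549 on the log2 scale, UHRF1 3.67 ± 0.10 and RRM2 3.08 ± 0.06. These 3 had the largest differences between the untreated lines, which rest on the same untreated libraries as the differences in response. Both treated SUM159 libraries were above both treated A549 libraries for 31 members (46.6% of all genes) and below them for 18 (42.1% of all genes), where all 52 were called higher in SUM159 without drug.

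**Figure D5:**
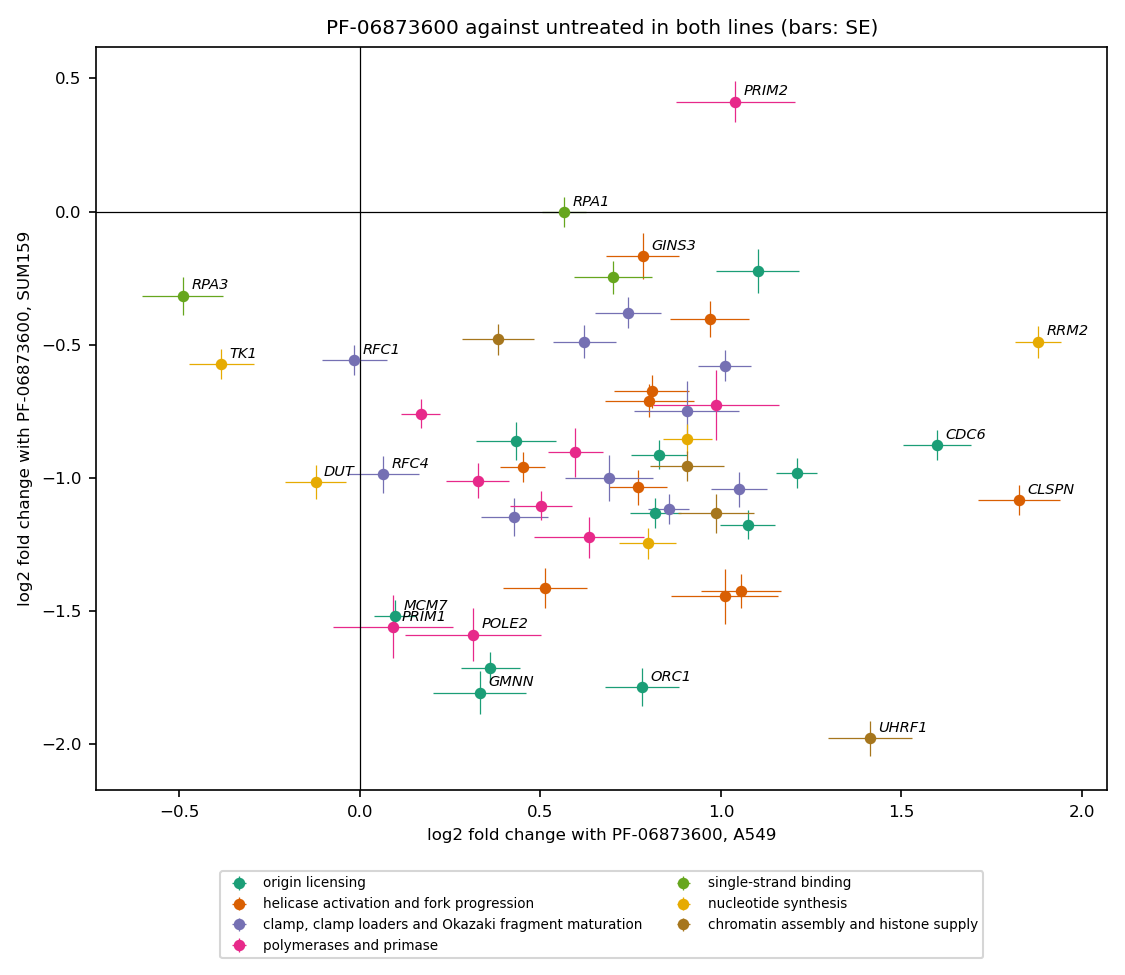
Log2 fold changes with PF-06873600 in A549 (x axis) and SUM159 (y axis) for the 52 genes, coloured by role, with SE bars in both directions. Most points lie right of 0 and below 0, 41 of them called in both directions, TK1 and RPA3 lie lowest on the x axis, both with called falls in each line, and PRIM2 is the 1 point above 0 on both axes.

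The responses were also described by promoter letters. With the combination the median log2 fold change was -0.73 for the 16 members with E2F letters, -1.06 for the 28 without and -1.08 for the 8 with no window held. With PF-06873600 it was 0.67, 0.78 and 0.80 in A549 and -1.11, -0.86 and -0.86 in SUM159. Among the members with E2F letters, GINS2 was the lowest with the combination (-3.02) and LIG1 the highest (-0.02). These medians are descriptions of 3 classes of unequal size and were not tested.

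Genes of the same pathway outside the 52 were followed with 3 further lists. Of 36 other replication factors, 35 were tested and RNASEH2A did not pass the filter. With the combination 25 of the 35 fell and 2 rose, where 30% and 35.1% of all genes did, with a median of -0.64. The lowest were ASF1B, a histone chaperone (-3.67), TOP2A, the topoisomerase of dividing cells (-2.94), and DTL, the adaptor of the ligase that destroys CDT1 (-2.04). With palbociclib 10 rose and 2 fell, where 8.3% and 7.4% of all genes did, and with indisulam 6 rose and 8 fell, where 28% and 17.5% did. With PF-06873600 in A549 16 rose and 4 fell, where 28.5% and 27.8% of all genes did, DTL (1.22) and the clamp loader subunit CHTF18 (1.27) being the highest and TOP2A (-1.23) the lowest. In SUM159 31 fell and 1 rose, where 35.6% and 38.1% of all genes did, with SSRP1 of the FACT histone chaperone lowest (-1.71) and DBF4, the activator of the kinase CDC7, next (-1.44). The interaction of the 2 drugs was called below the sum for 26 and above it for 0 of them, where 14.5% and 10.7% of all genes were. The PF-06873600 response was called lower in SUM159 than in A549 for 30 and higher for 1, where 27.2% and 25.8% of all genes were.

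Among 17 other deoxynucleotide enzymes 7 fell and 4 rose with the combination, where 30% and 35.1% of all genes did, with a median of -0.10. SAMHD1, which breaks down deoxynucleotide triphosphates, and RRM2B, the p53-inducible subunit of ribonucleotide reductase, rose (1.25 and 1.18). RRM2 and RRM2B thus went in opposite directions with the combination, as they did with indisulam alone (-0.41 and 1.12). SAMHD1 had a log2 fold change of 0.72 with each single drug. In the interaction 0 of the 17 were called above the sum and 8 below it, where 10.7% and 14.5% of all genes were. With PF-06873600 6 rose and 4 fell in A549, where 28.5% and 27.8% of all genes did, and 3 rose and 10 fell in SUM159, where 38.1% and 35.6% did. SAMHD1 rose in both lines (1.24 in A549 and 0.70 in SUM159), and the folate enzymes SHMT2 and MTHFD2 fell in A549 (-1.23 and -1.15).

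Of 16 genes of purine and pyrimidine synthesis, 15 fell and 1 rose with PF-06873600 in SUM159, where 35.6% and 38.1% of all genes did, with a median of -0.92. PFAS was lowest (-1.75), followed by IMPDH2, the rate-limiting enzyme of guanine nucleotide synthesis (-1.31), and ADSS1 was the 1 that rose (1.63). In A549 9 rose and 2 fell with the same agent, where 28.5% and 27.8% of all genes did, with a median of 0.32. With the combination 8 fell and 1 rose, where 30% and 35.1% did, with a median of -0.13. DHODH, the mitochondrial enzyme of pyrimidine synthesis, was lowest with the combination (-0.93). The PF-06873600 response was called lower in SUM159 than in A549 for 15 and higher for 1 of the 16, where 27.2% and 25.8% of all genes were.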

How the data were processed

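Stranded poly(A) RNA libraries were sequenced from 7 groups of 2. The deposited files hold raw counts per Ensembl gene that the authors made from aligned reads, and the submitters' processing notes name HISAT2 2.2.1 and HTSeq without a role. The strand setting of counting is not given in the sources used here. Summary lines for reads without a gene were left out of library totals, and 3.06% to 3.56% of reads per library were listed as ambiguous. Counts were tested with edgeR 4.0.16 in R 4.3.3 by the quasi-likelihood F-test, scaled by total counts on genes, after filterByExpr, with Benjamini-Hochberg adjustment over all genes and a threshold of 0.05. One model held the 10 A549 libraries, one the 4 SUM159 libraries and one all 14 for comparisons of the lines. SE is the log2 fold change divided by the root of F. CPM per kb uses the canonical GENCODE transcript. The scripts were tested on simulated data. Alternatives were TMM factors, DESeq2 1.42.0, other filters, a 2-fold cut, models of the compared groups, a replicate block and leaving out each library.

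The members and lists were chosen with earlier results of these data known. Values in every library were to be given for members with the 3 lowest and 3 highest log2 fold changes of a comparison, the MCM2-7 genes and fixed members of each role, the rest being given by counts and range. GINS1, GINS3, CLSPN, RFC1, PRIM1, PRIM2, POLD1, POLD2, ORC1, ORC6 and RPA3 entered by their values. Other members are named with fold changes only, some chosen after their values were seen. Depth intervals and floors cover counting error only, since no molecular identifiers were used.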

Additional observations from a re-analysis of the deposited data

Results flagged for a closer look

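Responses that differ between drug backgrounds or between lines were tested by an interaction term of edgeR's quasi-likelihood test. The response to both drugs in A549 lay below the sum of the single responses for 48 of the 52 genes. Of all genes tested, 14.5% lay below it. Log2 interactions were -2.80 for CDC6, -2.69 for ORC1, -2.67 for CDC45 and -0.42 for POLD2.

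The response to PF-06873600 was lower in SUM159 than in A549 for 50 of the 52 genes. It was lower for 27.2% of all genes tested. Log2 differences were -3.39 for UHRF1, -2.91 for CLSPN, -2.57 for ORC1, -0.63 for PRIM2 and -0.54 for RFC1. With the same treatment the summed epithelial markers went from a range of 5370 to 6240 CPM to one of 13800 to 13900 CPM in A549 and from 2530 to 2680 CPM down to 1140 to 1170 CPM in SUM159. The summed fibroblast markers were higher in the treated libraries of both lines, but in A549 COL1A2, COL3A1 and DCN reached at most 3, 7 and 5 counts. The part of these markers was not tested. The lines differ in tissue of origin and in the level of these genes before treatment, which cannot be told apart from the line.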

How the results depend on the processing

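Most calls kept their direction and side of the threshold, and the alternatives that moved counts of members by over 1.5 times were these. In models of only the compared groups, 10 members rose and 1 fell with palbociclib, and 6 rose and 6 fell with indisulam. With indisulam 7 rose with TMM factors and 6 by DESeq2. With a 2-fold cut, 2 rose and 0 fell with palbociclib, 0 rose and 1 fell with indisulam, 28 fell with the combination, 32 against palbociclib and 26 against indisulam, 12 rose and 0 fell with PF-06873600 in A549, and 23 fell and 0 rose in SUM159. Over all genes 9% fell at this cut with the combination against untreated cells. The share of all genes was not computed for the other counts in this list, which therefore show only the effect of the cut. Leaving out 1 library gave 13 to 21 rises and 1 to 3 falls with palbociclib (13 without palbociclib replicate 1, 1 fall without palbociclib replicate 2), 7 to 11 rises and 7 to 13 falls with indisulam (7 rises without indisulam replicate 1), and 0 to 1 rises with the combination (1 without untreated replicate 1). Over all genes, 1168 fell with palbociclib, against 622 by DESeq2, 406 in the model of the compared groups, 656 without palbociclib replicate 1 and 522 without replicate 2, and 1310 rose, against 543, 816 and 779 in the last 3 of these. By DESeq2 2742 rose with indisulam in place of 4420, and 1495 lay below the sum in the interaction in place of 2281. The causes were not tested, except that a 2-fold cut is stricter by construction. Leaving out a library lost calls in some cases and gained them in others.

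Values near 0 changed sign in 18 cases, and none was called with that sign. With 1 library left out, RFC1 ran from -0.03 to 0.189 with the combination, from -0.053 to 0.165 against palbociclib (-0.03 with TMM factors), from -0.157 to 0.061 against indisulam and from -0.18 to 0.038 for the interaction. Likewise with the combination POLD1 ran from -0.196 to 0.553, PRIM2 from -0.084 to 0.4 and LIG1 from -0.068 to 0.026. CDC45 ran from -0.065 to 0.194 with palbociclib, and RPA1 from -0.046 to 0.046 with PF-06873600 in SUM159 (0.004 with TMM factors and 0.001 with the replicate block).

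Libraries share replicate numbers across groups, but no source says that a number marks a shared culture or day, and the correlation of same-numbered deviations ran from -0.303 to 0.271. With the replicate block 21 members rose with palbociclib, and 24 with the palbociclib numbers crossed, an alternative chosen after seeing the data. Depth limits the lowest members, POLE2 with 8 and 13 and CDC45 with 17 and 20 counts under the combination.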
